A study of Homo sapiens with 9 samples.

Results

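Receptor tyrosine kinases other than the Eph receptors were described across 9 RNA-seq libraries of VCaP cells, a human prostate cancer line in long use that carries the TMPRSS2-ERG fusion and expresses the androgen receptor. The 39 receptors were taken by their symbols from the deposited table of 60612 genes, a rule that uses no measured value. The 3 control libraries came from cells transfected with a control siRNA and labelled as normal for KMT2C, a histone H3 lysine methyltransferase that acts at enhancers. The other 6 came from cells labelled KMT2C deficient, 3 transfected with siRNA 1 against KMT2C and 3 with siRNA 2, and transfection lasted 4 days in every group. What the siRNA sequences were, and whether replicates were separate cultures, was not stated in the labels. The p-values therefore measure the spread between these libraries, which may be technical. Both comparisons with control use the same 3 control libraries.

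A receptor tyrosine kinase spans the plasma membrane once and binds a secreted or cell-bound ligand outside the cell. When receptors pair, tyrosines on their cytoplasmic tails are phosphorylated. Adaptors dock on these tyrosines and start the RAS-ERK and PI3K-AKT pathways, while ubiquitin ligases, phosphatases and feedback inhibitors end the signal. In prostate cancer cells these receptors are known as routes by which growth factors support survival beside the androgen receptor. RNA levels say nothing of receptor protein, its phosphorylation or its activity, none of which was measured here.

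RefSeq promoters (build GRCh38.p14, 250 bases before and 50 bases from the transcription start) matched 35 of the 39 receptors, taking the start nearest to the 5′ end of the gene in the deposited table. The bases before the start of 3 receptors are shown because they stand for the patterns described below. MERTK had the largest fall, ROR1 was higher with both siRNAs, and IGF1R was the most abundant receptor. Capitals mark GGGCGG on either strand, the core of a GC box.
MERTK, chr2:111898357-111898606, plus strand: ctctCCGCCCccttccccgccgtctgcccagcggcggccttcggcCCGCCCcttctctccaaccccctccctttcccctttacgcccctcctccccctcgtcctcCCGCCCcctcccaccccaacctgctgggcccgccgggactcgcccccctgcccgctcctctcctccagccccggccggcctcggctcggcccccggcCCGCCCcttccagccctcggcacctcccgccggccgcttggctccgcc
ROR1, chr1:63773767-63774016, plus strand: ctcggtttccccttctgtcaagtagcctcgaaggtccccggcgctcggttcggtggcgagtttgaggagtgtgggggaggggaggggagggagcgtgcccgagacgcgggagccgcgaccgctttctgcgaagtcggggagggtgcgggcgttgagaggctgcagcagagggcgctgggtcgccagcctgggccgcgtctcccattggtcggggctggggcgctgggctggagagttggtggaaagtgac
IGF1R, chr15:98648289-98648538, plus strand: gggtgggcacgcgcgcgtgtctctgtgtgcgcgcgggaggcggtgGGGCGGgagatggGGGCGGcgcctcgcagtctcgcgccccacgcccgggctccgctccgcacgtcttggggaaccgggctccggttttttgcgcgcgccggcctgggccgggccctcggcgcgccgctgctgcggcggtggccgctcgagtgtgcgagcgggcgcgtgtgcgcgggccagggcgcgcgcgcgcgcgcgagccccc

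The 250 bases shown held 25 CpG dinucleotides and 4 GGGCGG matches for MERTK. The ROR1 stretch held 24 CpG dinucleotides and 0 matches. The IGF1R stretch held 48 CpG dinucleotides and 2 matches. All 3 are therefore rich in CpG, whatever the direction of the receptor's RNA. Over the full windows of 300 bases, GGGCGG was found on either strand in 24 of the 35 receptor promoters and in 45.0% of all 35114 RefSeq promoters. The median number of CpG dinucleotides was 29 in the receptors and 14 over all promoters. The 14 matched receptors that passed the expression filter described below had a median of 32.5 CpG dinucleotides (9 to 55), and the 21 that did not had a median of 19 (0 to 52). The letters CCGGAA, an ETS core, were found in 6 of 35 receptor promoters and in 17.2% of all. AGAACA, a part of the androgen response element, was found in 5 of 35 and in 14.8% of all, and TATAAA in 2 of 35 and in 11.5% of all. These matches are a description of the windows and were not related to the changes in RNA.

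The 9 libraries held 58462215 to 70726213 expected counts each, and 24406 to 25318 genes had counts. KMT2C itself stood at an FPKM of 12.9 ± 0.806 in control, 1.87 ± 0.375 with siRNA 1 and 1.69 ± 0.0488 with siRNA 2 (mean ± SD, n = 3 libraries), so the knockdown was seen in every library labelled for it. Its log2 fold change against control was -2.81 ± 0.13 (SE, adjusted p = 4.56e-06) with siRNA 1 and -2.98 ± 0.13 (SE, adjusted p = 8.76e-07) with siRNA 2. The libraries separated by group on the first principal components of all tested genes, which held 43.5% and 20.8% of the variance. Each of the 10 luminal prostate markers checked reached an FPKM of 1, and their summed FPKM was 1744 to 1828 in control, 935 to 973 with siRNA 1 and 932 to 956 with siRNA 2. None of 5 markers of endothelial cells, which carry VEGF receptors, reached an FPKM of 1 (summed 0.927 to 1.20, 0.531 to 0.651 and 0.382 to 0.476). Of 5 fibroblast markers only LUM did (summed 1.57 to 2.64, 0.691 to 0.914 and 7.16 to 12.6), and of 5 blood cell markers only CD14 did, with MS4A1 and CD3E at 0 (summed 0.523 to 0.616, 1.44 to 1.87 and 1.06 to 2.07). The part of the fall of the luminal markers in the receptor results was not tested. In bulk RNA, fewer cells of a type and less RNA per cell cannot be told apart.

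Of the 39 receptors, 17 reached an FPKM of 1 in 3 or more of the 9 libraries, the filter under which 12830 genes were tested, and 22 did not. FPKM, fragments per kilobase of transcript scaled to sequencing depth, allows levels of different genes to be set side by side. In the control libraries IGF1R, the receptor of insulin-like growth factors, was the highest at an FPKM of 26.0 ± 10.0 (mean ± SD, n = 3 libraries, as for the levels that follow). ERBB3 at 6.89 ± 0.866 and RYK at 6.29 ± 0.211 followed, and their ranges over 3 libraries overlapped. DDR1 came next at 5.25 ± 0.201, clear of the receptors above and below it. ERBB2 at 4.00 ± 0.298, INSR at 3.98 ± 0.144 and MERTK at 3.59 ± 0.252 overlapped their neighbours in this order. So did FGFR3 at 2.63 ± 0.450, PTK7 at 2.58 ± 0.444 and EGFR at 2.29 ± 0.108, and then MST1R at 1.78 ± 0.193 and MET at 1.59 ± 0.176. The lowest 5 tested receptors were under an FPKM of 1 in the control mean. Among them TYRO3 at 0.930 ± 0.108 overlapped ROR1 at 0.795 ± 0.0458, while FGFR1 at 0.673 ± 0.0441, FLT4 at 0.639 ± 0.0695 and NTRK2 at 0.577 ± 0.0787 formed the last overlapping set.

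**Figure D1:**
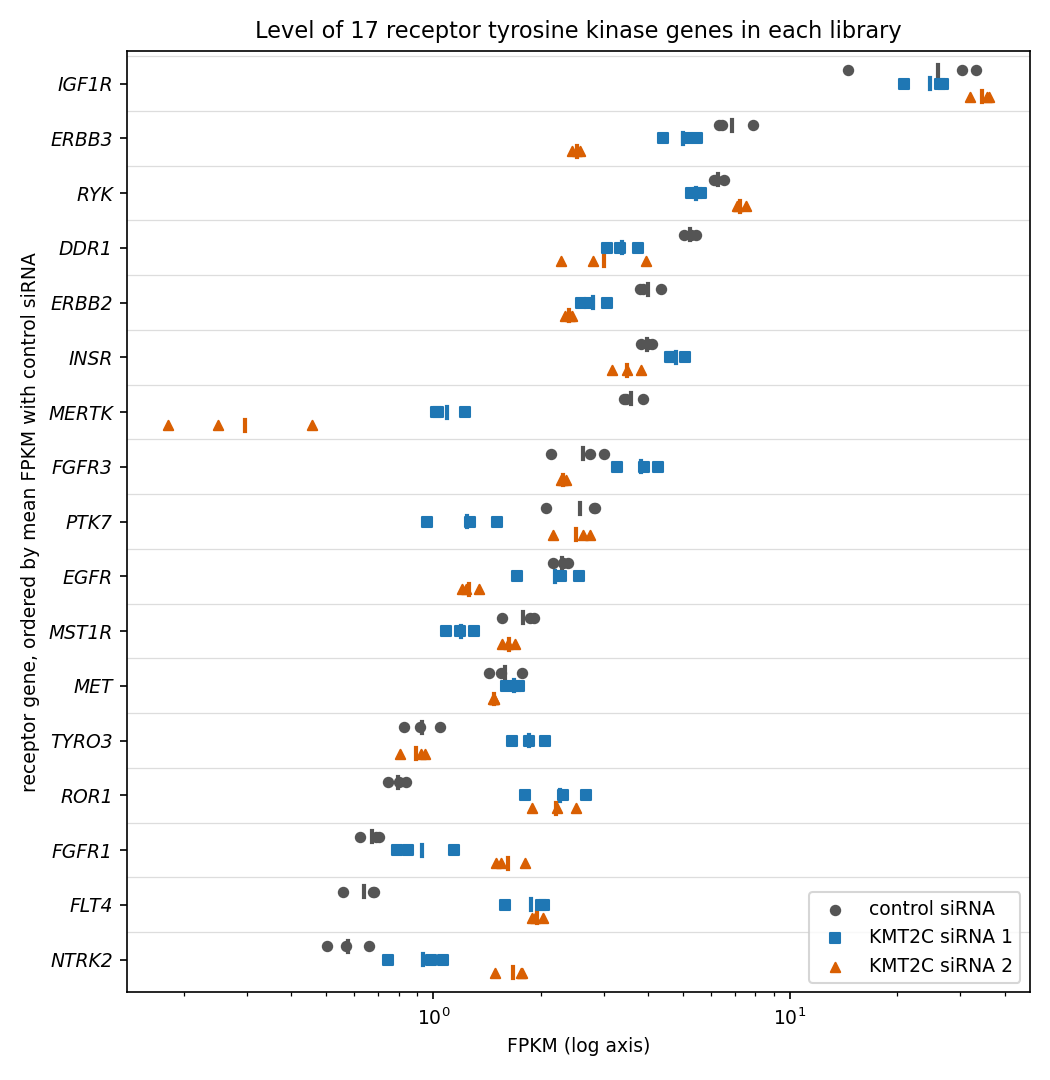
FPKM (log axis) of the 17 tested receptors in each library, ordered by the control mean, with points for the 3 libraries of each group and a short bar at their mean. MERTK spans the widest range, from 3.59 in the control mean to 0.296 with siRNA 2, while IGF1R stays above every other receptor in each group.

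The order differed between the groups. With siRNA 2, MERTK went from the 7th to the 17th place among the 17, EGFR from the 10th to the 15th and ERBB3 from the 2nd to the 5th, while ROR1 moved from the 14th to the 9th. There the ranges of ERBB3 and ROR1 overlapped those of neighbours in the order, and those of MERTK and EGFR did not. With siRNA 1, MERTK was at the 15th place, EGFR at the 9th, ERBB3 at the 3rd and ROR1 at the 8th, and each overlapped a neighbour. IGF1R made up 24.0%, 40.5% and 41.1% of the summed FPKM of the 39 receptors in the control libraries, 34.5% to 38.9% with siRNA 1 and 45.1% to 48.6% with siRNA 2. Without IGF1R the summed receptor FPKM was 44.7 to 47.5 in control, 39.7 to 46.3 with siRNA 1 and 37.7 to 40.5 with siRNA 2.

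Adjusted p-values below are from edgeR's quasi-likelihood test, 2-sided, with Benjamini-Hochberg adjustment over all 12830 genes, and a receptor was called at an adjusted p under 0.05. With siRNA 1, 7 of the 17 tested receptors were higher than control and 7 were lower, where 21.2% of all tested genes were called higher and 20.5% lower. With siRNA 2, 4 were higher and 6 were lower, where 24.4% of all tested genes were called higher and 24.9% lower. Called in either direction, that is 82.4% of the tested receptors against 41.7% of all tested genes with siRNA 1, and 58.8% against 49.3% with siRNA 2. The direct comparison called 6 receptors higher and 5 lower with siRNA 1 than with siRNA 2, where 20.6% of all tested genes were called higher and 18.9% lower. The median log2 fold change of the tested receptors was -0.09 with siRNA 1 and -0.16 with siRNA 2, beside 0.01 and 0.02 over all tested genes.

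These counts cannot be read as a property of the family, since 5 receptors passed the filter only through libraries of siRNA-treated cells. FLT4 and ROR1 reached an FPKM of 1 in 0 control libraries and in all 6 siRNA libraries. FGFR1 and NTRK2 did so in 0 control libraries, 1 siRNA 1 library and 3 siRNA 2 libraries. TYRO3 did so in 1 control library and 3 siRNA 1 libraries. The receptors called higher with siRNA 2 were FLT4, ROR1, FGFR1 and NTRK2, all from this set. With TYRO3 they made up 5 of the 7 called higher with siRNA 1. MERTK passed through the control and siRNA 1 libraries, with 0 of 3 siRNA 2 libraries at an FPKM of 1. With a filter that does not look at groups, a mean FPKM of at least 0.3 over all 9 libraries, 19 receptors were tested among 16018 genes. It called 9 higher and 7 lower with siRNA 1, where 17.7% of all genes under that filter were called higher and 18.1% lower. With siRNA 2 it called 5 higher and 6 lower, where 21.1% and 22.7% were. That filter was chosen after the data were seen.

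**Figure D2:**
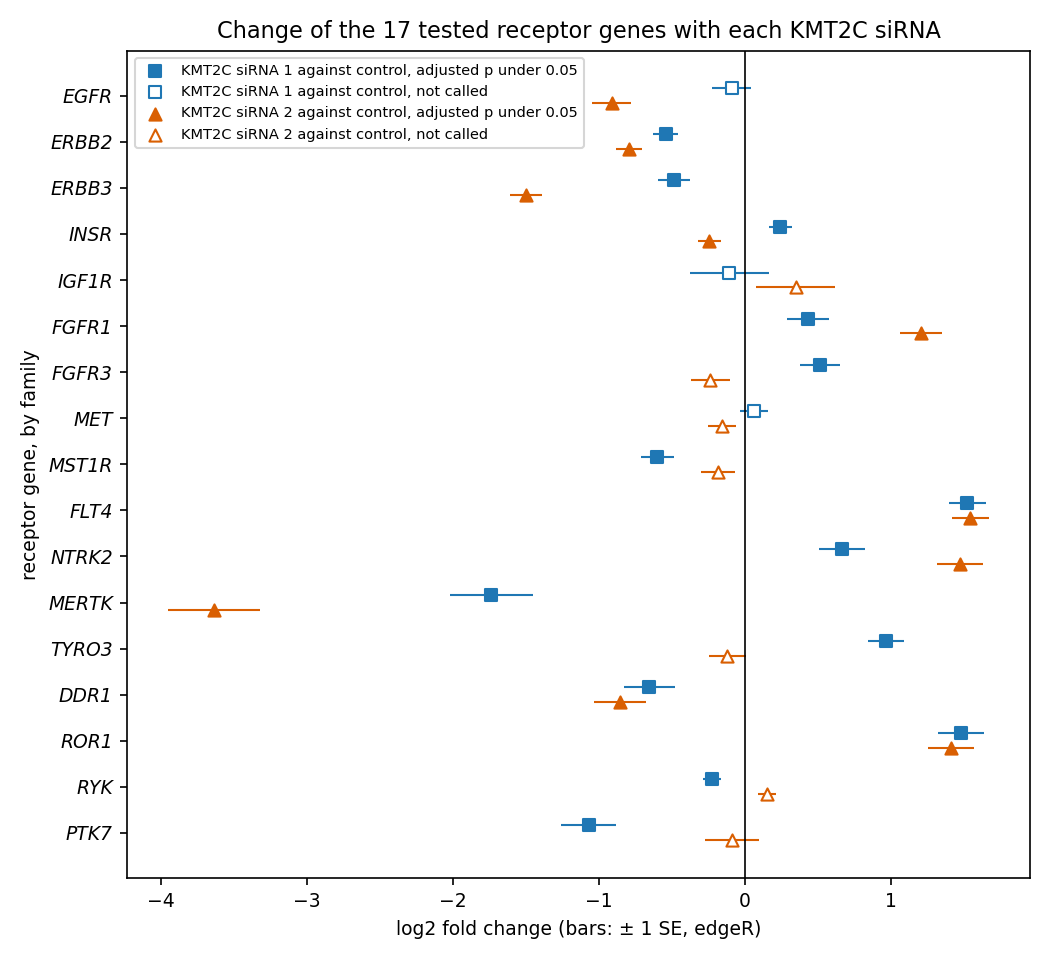
Log2 fold change of each tested receptor against control for siRNA 1 and siRNA 2, with bars of 1 standard error from edgeR and filled points for an adjusted p under 0.05. MERTK lies at the lower end with both siRNAs, and FLT4 and ROR1 lie toward the upper end. With siRNA 2, NTRK2 (1.47) lies between FLT4 (1.54) and ROR1 (1.42). TYRO3 and PTK7 moved with siRNA 1 while their values with siRNA 2 lie near 0.

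The ERBB receptors are the epidermal growth factor family, in which EGFR binds EGF-like ligands, ERBB2 has no ligand of its own and acts as the preferred partner, and ERBB3 binds neuregulins but has little kinase activity. ERBB2 and ERBB3 fell with both siRNAs and EGFR fell with siRNA 2. The FPKM of ERBB3 was 6.45, 6.32 and 7.88 in control, 4.40, 5.47 and 5.13 with siRNA 1, and 2.45, 2.58 and 2.54 with siRNA 2. The 3 groups did not overlap, control being highest and siRNA 2 lowest. The log2 fold change of ERBB3 was -0.49 ± 0.11 (SE, adjusted p = 0.00701) with siRNA 1 and -1.50 ± 0.11 (SE, adjusted p = 1.11e-05) with siRNA 2, and it was higher with siRNA 1 than with siRNA 2 by 1.01 ± 0.11 (SE, adjusted p = 1.58e-04). ERBB2 FPKM was 3.88, 3.79 and 4.34 in control, 2.59, 3.07 and 2.73 with siRNA 1, and 2.45, 2.34 and 2.42 with siRNA 2. Every siRNA library lay below every control library, and the siRNA groups did not overlap either. ERBB2 fell by 0.54 ± 0.09 on the log2 scale (SE, adjusted p = 0.00137) with siRNA 1 and fell by 0.79 ± 0.09 (SE, adjusted p = 1.11e-04) with siRNA 2. Its difference between the siRNAs, 0.25 ± 0.09 (SE, adjusted p = 0.0504), missed the threshold, and it was called under 5 of 20 alternatives, DESeq2 among them (adjusted p = 0.0404). EGFR FPKM was 2.38, 2.17 and 2.31 in control, 1.72, 2.28 and 2.57 with siRNA 1, and 1.35, 1.23 and 1.20 with siRNA 2. All 3 siRNA 2 libraries were below all others, while the siRNA 1 libraries lay on both sides of control. EGFR had a log2 fold change of -0.09 ± 0.13 (SE, adjusted p = 0.623) with siRNA 1 and -0.91 ± 0.13 (SE, adjusted p = 5.76e-04) with siRNA 2, and the direct difference between the siRNAs was 0.82 ± 0.13 (SE, adjusted p = 0.00150). The exons of EGFR overlap those of EGFR-AS1 on the opposite strand by 186 bases, and those of ERBB2 overlap MIEN1 by 571 bases and PGAP3 by 194. The labels do not state whether counting used strand, so reads in these overlaps could belong to either gene. ERBB3 shares 31 bases with AC034102.2 on its own strand.

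Of 11 ERBB ligands only HBEGF and BTC were tested, and they moved in opposite directions. BTC passed the filter only through siRNA libraries, its control FPKM being at most 0.729, so its rise is tied to the filter. HBEGF, a membrane-anchored ligand of EGFR and ERBB4 that is released by shedding, had a mean FPKM of 10.7 ± 1.68 in control, 7.05 ± 0.538 with siRNA 1 and 2.17 ± 0.257 with siRNA 2 (SD, n = 3). It fell by 0.63 ± 0.14 (log2, SE, adjusted p = 0.00674) with siRNA 1 and fell by 2.36 ± 0.15 (SE, adjusted p = 4.57e-06) with siRNA 2. BTC, betacellulin, stood at 0.665 ± 0.0748 in control, 1.22 ± 0.0618 with siRNA 1 and 1.06 ± 0.0801 with siRNA 2 (SD, n = 3) and rose by 0.86 ± 0.15 (SE, adjusted p = 0.00198) with siRNA 1 and by 0.61 ± 0.15 (SE, adjusted p = 0.00820) with siRNA 2. The summed FPKM of the 11 ligands was 10.9 to 14.1 in control, 8.65 to 9.77 with siRNA 1 and 3.35 to 4.18 with siRNA 2, and HBEGF made up most of it in control.

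In the insulin receptor family, INSR was called higher with siRNA 1 and lower with siRNA 2, both near the threshold, and IGF1R passed the test in neither comparison with control. INSR, the insulin receptor, had an FPKM of 4.11, 3.82 and 4.00 in control, 4.62, 5.09 and 4.64 with siRNA 1, and 3.17, 3.81 and 3.48 with siRNA 2. The siRNA 1 libraries were above all control libraries, and the siRNA 2 libraries were below them, though only just, the highest siRNA 2 library being at 3.81 and the lowest control at 3.82. INSR rose by 0.24 ± 0.08 (SE, adjusted p = 0.0365) with siRNA 1 and fell by 0.25 ± 0.08 (SE, adjusted p = 0.0290) with siRNA 2. The siRNA 1 call was lost under 10 of 20 alternatives, among them the replicate block (adjusted p = 0.0544) and leaving out any control or siRNA 1 library (adjusted p up to 0.107). The siRNA 2 call was lost under 7 of 20, among them upper quartile scaling (-0.15, adjusted p = 0.161). The difference between the siRNAs, 0.49 ± 0.08 (SE, adjusted p = 0.00144), kept its call under all 20.

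IGF1R FPKM was 14.5, 30.4 and 33.1 in control, 20.9, 26.3 and 26.9 with siRNA 1, and 35.6, 36.0 and 31.9 with siRNA 2. Control replicate 1, at 14.5, was lower than every other library, and the remaining 8 lay between 20.9 and 36.0. Its expected counts were 14036 in control replicate 1 against 33792 and 38760 in the other control libraries. IGF1R had log2 fold changes of -0.11 ± 0.27 (SE, adjusted p = 0.783) with siRNA 1 and 0.35 ± 0.27 (SE, adjusted p = 0.318) with siRNA 2. Without control replicate 1 these became -0.40 (adjusted p = 0.0279) and 0.05 (adjusted p = 0.737), and the difference between the siRNAs, -0.45 ± 0.27 (SE, adjusted p = 0.218), kept its size with an adjusted p of 0.0104. With only the 2 siRNA groups fitted, that difference was -0.46 (adjusted p = 0.0155), and the siRNA 1 libraries lay below all siRNA 2 libraries. Against control, IGF1R is thus called or not with siRNA 1 depending on 1 control library. In that library 174 tested genes were more than 1.8-fold below both other libraries of its group, against 186 to 237 for the other 8 libraries. A further 139 genes were above both, against 104 to 153. That library also held the fewest counts, 58462215.

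Of 10 insulin-like ligands and binding proteins 4 were tested, all of them binding proteins, which hold IGFs outside the cell and limit or deliver them to IGF1R. IGFBP2, at 28.8 ± 3.22 in control, 21.4 ± 2.22 with siRNA 1 and 16.4 ± 0.607 with siRNA 2 (SD, n = 3), fell by 0.45 ± 0.11 (log2, SE, adjusted p = 0.00876) with siRNA 1 and fell by 0.87 ± 0.11 (SE, adjusted p = 2.06e-04) with siRNA 2. IGFBP4 was low, at 0.753 ± 0.221 in control, 2.07 ± 0.247 with siRNA 1 and 2.12 ± 0.207 with siRNA 2 (SD, n = 3). IGFBP4 rose by 1.43 ± 0.21 (SE, adjusted p = 8.30e-04) with siRNA 1 and 1.44 ± 0.21 (SE, adjusted p = 5.51e-04) with siRNA 2. Its control libraries lay at 0.609 to 1.01 and its siRNA libraries at 1.90 to 2.35. It thus passed the filter through the siRNA libraries, and its rise is tied to the filter. IGFBP3 was the most abundant with siRNA 2, at 26.0 ± 3.11 in control, 28.8 ± 5.15 with siRNA 1 and 73.4 ± 12.0 with siRNA 2 (SD, n = 3). It rose by 1.44 ± 0.16 (SE, adjusted p = 1.13e-04) with siRNA 2, and its value with siRNA 1 was 0.12 ± 0.16 (SE, adjusted p = 0.573). IGFBP5, named here after its values were seen, fell by 1.54 ± 0.39 (SE, adjusted p = 0.0130) with siRNA 1 and rose by 2.68 ± 0.39 (SE, adjusted p = 5.69e-04) with siRNA 2. The summed FPKM of the list was 51.0 to 63.6 in control, 47.2 to 58.7 with siRNA 1 and 87.3 to 109.8 with siRNA 2.

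Among the FGF receptors, FGFR1 rose with siRNA 2 and FGFR3 rose with siRNA 1. FGFR1 FPKM was 0.706, 0.689 and 0.623 in control, 0.790, 1.14 and 0.852 with siRNA 1, and 1.81, 1.55 and 1.50 with siRNA 2. All siRNA libraries were above all control libraries, and siRNA 2 was above siRNA 1 without overlap. Its log2 fold change was 1.21 ± 0.14 (SE, adjusted p = 1.82e-04) with siRNA 2 and 0.44 ± 0.14 (SE, adjusted p = 0.0390) with siRNA 1. The siRNA 1 call was lost under 11 of 20 alternatives, among them the replicate block (adjusted p = 0.0548) and leaving out siRNA 1 replicate 2 (0.27, adjusted p = 0.106). The difference between the siRNAs was -0.77 ± 0.14 (SE, adjusted p = 0.00305). The exons of FGFR1 overlap those of LETM2 by 138 bases and AC087623.1 by 156, both on the opposite strand. FGFR3 FPKM was 3.01, 2.75 and 2.13 in control, 3.28, 4.27 and 3.89 with siRNA 1, and 2.30, 2.28 and 2.36 with siRNA 2. The siRNA 1 libraries were above all others, while siRNA 2 lay within the control range. FGFR3 rose by 0.51 ± 0.14 (SE, adjusted p = 0.0162) with siRNA 1, and its value with siRNA 2 was -0.24 ± 0.14 (SE, adjusted p = 0.185). The siRNA 1 call was lost without siRNA 1 replicate 2 (0.43, adjusted p = 0.0559), and the siRNA 2 value was called without control replicate 3 (-0.36, adjusted p = 0.0403). The difference between the siRNAs was 0.75 ± 0.14 (SE, adjusted p = 0.00280). Of 22 FGF ligands only FGF13, an intracellular member that does not act through these receptors, was tested, at -0.08 ± 0.19 (SE, adjusted p = 0.778) and -0.03 ± 0.19 (SE, adjusted p = 0.924) with siRNA 1 and siRNA 2. The others were under the filter, and 8 of the 22 were at 0 in every library.

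MET, the receptor of hepatocyte growth factor, was not called in any comparison, while its relative MST1R fell with siRNA 1. MET FPKM was 1.43 to 1.78 in control, 1.60 to 1.73 with siRNA 1 and 1.47 to 1.48 with siRNA 2, and the groups overlapped. Its log2 fold changes were 0.06 ± 0.09 (SE, adjusted p = 0.638) and -0.16 ± 0.09 (SE, adjusted p = 0.204) with siRNA 1 and siRNA 2. MST1R, the receptor of macrophage-stimulating protein, had an FPKM of 1.92, 1.56 and 1.86 in control, 1.09, 1.30 and 1.19 with siRNA 1, and 1.62, 1.70 and 1.56 with siRNA 2. The siRNA 1 libraries were below all others, and siRNA 2 lay within the control range. MST1R fell by 0.60 ± 0.12 (log2, SE, adjusted p = 0.00343) with siRNA 1, and its value with siRNA 2 was -0.19 ± 0.11 (SE, adjusted p = 0.215). The difference between the siRNAs was -0.42 ± 0.12 (SE, adjusted p = 0.0204), and that call was lost under 5 of 20 alternatives, with adjusted p up to 0.0829. MST1R exons overlap AC105935.2 by 327 bases on the opposite strand.

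HGF, the ligand of MET, was higher with both siRNAs. Its FPKM was 1.48 ± 0.00910 in control, 4.47 ± 0.521 with siRNA 1 and 8.33 ± 0.896 with siRNA 2 (SD, n = 3), and in tissue this ligand is made mostly by stromal cells. HGF rose by 1.57 ± 0.11 (SE, adjusted p = 1.71e-05) with siRNA 1 and by 2.44 ± 0.11 (SE, adjusted p = 8.76e-07) with siRNA 2. The fibroblast marker LUM had a log2 fold change of -0.85 with siRNA 1 and 2.92 with siRNA 2, and the other 4 markers of that list stayed under an FPKM of 1. Their part in the HGF values was not tested.

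Of the VEGF, PDGF and KIT receptors only FLT4, the receptor of VEGF-C and VEGF-D known from lymphatic endothelium, was tested. FLT4 FPKM was 0.678, 0.681 and 0.559 in control, 2.01, 2.04 and 1.59 with siRNA 1, and 1.90, 2.02 and 1.93 with siRNA 2. All siRNA libraries were above all control libraries, and the siRNA groups overlapped. It rose by 1.53 ± 0.13 (SE, adjusted p = 4.90e-05) with siRNA 1 and 1.54 ± 0.13 (SE, adjusted p = 1.96e-05) with siRNA 2, and the difference between the siRNAs was -0.02 ± 0.12 (SE, adjusted p = 0.920). FLT4 lies on chr5:180601506-180649624, on the minus strand. The 5 endothelial markers all stayed under an FPKM of 1, with the summed values given above, and their part in the FLT4 values was not tested.

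Of the ligands of this family, VEGFB and PDGFB fell with both siRNAs. VEGFB, a ligand of FLT1, was the most abundant ligand measured in control, at 70.3 ± 3.91 in control, 22.9 ± 2.44 with siRNA 1 and 12.0 ± 1.12 with siRNA 2 (SD, n = 3). It fell by 1.64 ± 0.11 (log2, SE, adjusted p = 1.62e-05) with siRNA 1 and fell by 2.60 ± 0.11 (SE, adjusted p = 8.23e-07) with siRNA 2. PDGFB, a ligand of both PDGF receptors, stood at 5.26 ± 0.589 in control, 2.49 ± 0.0838 with siRNA 1 and 1.08 ± 0.186 with siRNA 2 (SD, n = 3). It fell by 1.10 ± 0.15 (SE, adjusted p = 4.97e-04) with siRNA 1 and fell by 2.34 ± 0.15 (SE, adjusted p = 5.72e-06) with siRNA 2. The PDGF receptors were themselves near 0, as given below. NRP1, neuropilin 1, a co-receptor for VEGF, was the only tested co-receptor of 10, at 3.82 ± 0.263 in control, 2.15 ± 0.0438 with siRNA 1 and 5.25 ± 1.06 with siRNA 2 (SD, n = 3). It fell by 0.85 ± 0.13 (SE, adjusted p = 0.00103) with siRNA 1 and rose by 0.40 ± 0.13 (SE, adjusted p = 0.0294) with siRNA 2. NRP1 exons overlap AL121748.2 by 561 bases on the opposite strand. Over the list of 33 other receptor ligands, 9 were tested. Of these 1 rose and 3 fell with siRNA 1, where 21.2% of all tested genes were called higher and 20.5% lower, and 3 rose and 3 fell with siRNA 2, where 24.4% and 24.9% were.

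NTRK2 encodes the receptor of the neurotrophin BDNF and is known from neurons. NTRK2 FPKM was 0.502, 0.570 and 0.659 in control, 0.747, 0.988 and 1.07 with siRNA 1, and 1.76, 1.77 and 1.49 with siRNA 2. All siRNA 1 libraries were above all control libraries, and all siRNA 2 libraries above those of siRNA 1. It rose by 0.66 ± 0.16 (SE, adjusted p = 0.00903) with siRNA 1 and by 1.47 ± 0.16 (SE, adjusted p = 8.99e-05) with siRNA 2, and the difference between the siRNAs was -0.81 ± 0.16 (SE, adjusted p = 0.00352).

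The TAM receptors TYRO3, AXL and MERTK bind GAS6, clear dying cells and damp inflammation, and protein S is a further ligand within the family. MERTK had the largest change of any receptor tested, and TYRO3 moved the other way with siRNA 1. MERTK FPKM was 3.42, 3.47 and 3.88 in control, 1.02, 1.23 and 1.03 with siRNA 1, and 0.250, 0.457 and 0.181 with siRNA 2. The 3 groups did not overlap, and the mean fell to 30.4% of control with siRNA 1 and to 8.25% with siRNA 2. MERTK fell by 1.74 ± 0.29 (log2, SE, adjusted p = 0.00156), 3.33-fold, with siRNA 1 and fell by 3.64 ± 0.31 (SE, adjusted p = 2.55e-05), 12.5-fold, with siRNA 2. It was higher with siRNA 1 than with siRNA 2 by 1.90 ± 0.30 (SE, adjusted p = 0.00117). All 3 results kept their call under each of 20 alternatives, the siRNA 2 value lying between -4.10 and -1.83, the latter on the log2(FPKM + 1) scale. The gene lies on chr2:111898607-112029561, on the plus strand, just after the promoter shown above with its 25 CpG dinucleotides. TYRO3 FPKM was 0.829, 0.917 and 1.04 in control, 1.66, 2.06 and 1.85 with siRNA 1, and 0.807, 0.946 and 0.924 with siRNA 2. Only the siRNA 1 libraries stood apart, above all others. TYRO3 rose by 0.97 ± 0.13 (SE, adjusted p = 4.62e-04) with siRNA 1, its value with siRNA 2 was -0.12 ± 0.12 (SE, adjusted p = 0.462), and the difference between the siRNAs was 1.09 ± 0.13 (SE, adjusted p = 2.32e-04). AXL was at 0 to 23 expected counts in each library, and the ligands GAS6 and PROS1 were under the filter.

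DDR1, a receptor activated by collagen and known from epithelial cells, was lower with both siRNAs. DDR1 FPKM was 5.28, 5.03 and 5.43 in control, 3.35, 3.75 and 3.07 with siRNA 1, and 2.28, 3.96 and 2.81 with siRNA 2. Every siRNA library was below every control library, and siRNA 2 replicate 2 stood above the other libraries of its group. DDR1 fell by 0.65 ± 0.18 (log2, SE, adjusted p = 0.0170) with siRNA 1 and fell by 0.86 ± 0.18 (SE, adjusted p = 0.00380) with siRNA 2. The siRNA 1 call was lost without control replicate 3 (adjusted p = 0.0511) or siRNA 1 replicate 3 (adjusted p = 0.0564). The exons of DDR1 hold the microRNA gene MIR4640. Without siRNA 2 replicate 2 the difference between the siRNAs went from 0.20 (adjusted p = 0.408) to 0.44 (adjusted p = 0.0289).

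ROR1, RYK and PTK7 take part in Wnt signalling and have little or no kinase activity of their own. ROR1, a receptor of Wnt5a that is abundant in embryos and in some cancers, rose with both siRNAs. ROR1 FPKM was 0.803, 0.836 and 0.745 in control, 1.81, 2.68 and 2.31 with siRNA 1, and 2.22, 2.52 and 1.89 with siRNA 2. Every siRNA library exceeded every control library, and the siRNA groups overlapped. It rose by 1.48 ± 0.16 (SE, adjusted p = 1.67e-04) with siRNA 1 and 1.42 ± 0.16 (SE, adjusted p = 1.15e-04) with siRNA 2, and the difference between the siRNAs was 0.07 ± 0.15 (SE, adjusted p = 0.774). RYK, a Wnt receptor with an inactive kinase domain, had an FPKM of 6.13, 6.20 and 6.53 in control, 5.29, 5.50 and 5.61 with siRNA 1, and 7.14, 7.11 and 7.53 with siRNA 2. The groups did not overlap, with siRNA 1 below and siRNA 2 above control, though the steps were small. RYK fell by 0.23 ± 0.06 (log2, SE, adjusted p = 0.0161) with siRNA 1, a call lost without control replicate 3 (adjusted p = 0.0530) and with no filter (adjusted p = 0.0672). Its value with siRNA 2 was 0.15 ± 0.06 (SE, adjusted p = 0.0666), which was called under upper quartile scaling (0.25, adjusted p = 0.00616). It was also called with limma on log2(FPKM + 1) (0.18, adjusted p = 0.0233) and on log2(FPKM + 0.1) (0.20, adjusted p = 0.0253). In these fits the median over all tested genes with siRNA 2 was 0.12, 0.06 and 0.08, beside 0.02 in the main fit. The difference between the siRNAs was -0.38 ± 0.06 (SE, adjusted p = 0.00137). PTK7, a pseudokinase of planar cell polarity, had an FPKM of 2.83, 2.84 and 2.07 in control, 1.26, 1.51 and 0.958 with siRNA 1, and 2.64, 2.17 and 2.74 with siRNA 2. Only the siRNA 1 libraries stood apart, below all others. PTK7 fell by 1.07 ± 0.19 (SE, adjusted p = 0.00224) with siRNA 1, its value with siRNA 2 was -0.09 ± 0.19 (SE, adjusted p = 0.725), and the difference between the siRNAs was -0.98 ± 0.19 (SE, adjusted p = 0.00368).

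The remaining 22 receptors were under the filter, and 3 of them, INSRR, TIE1 and MUSK, had no counts in any library. A further 5 (KIT, PDGFRB, CSF1R, TEK and LTK) never exceeded 12 expected counts. Low values in the table pile up at multiples of about 4 counts, so 4 expected counts stand for about 1 sequenced fragment. ERBB4, PDGFRA, FLT1, KDR, NTRK3, RET, ALK, AXL and ROR2 reached more than 12 but at most 50 counts in their highest library, and FGFR4, DDR2, FLT3, FGFR2 and ROS1 exceeded 50. For these genes counts are given, and intervals on ratios of summed fragments cover counting error only, not the spread between libraries.

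**Figure D3:**
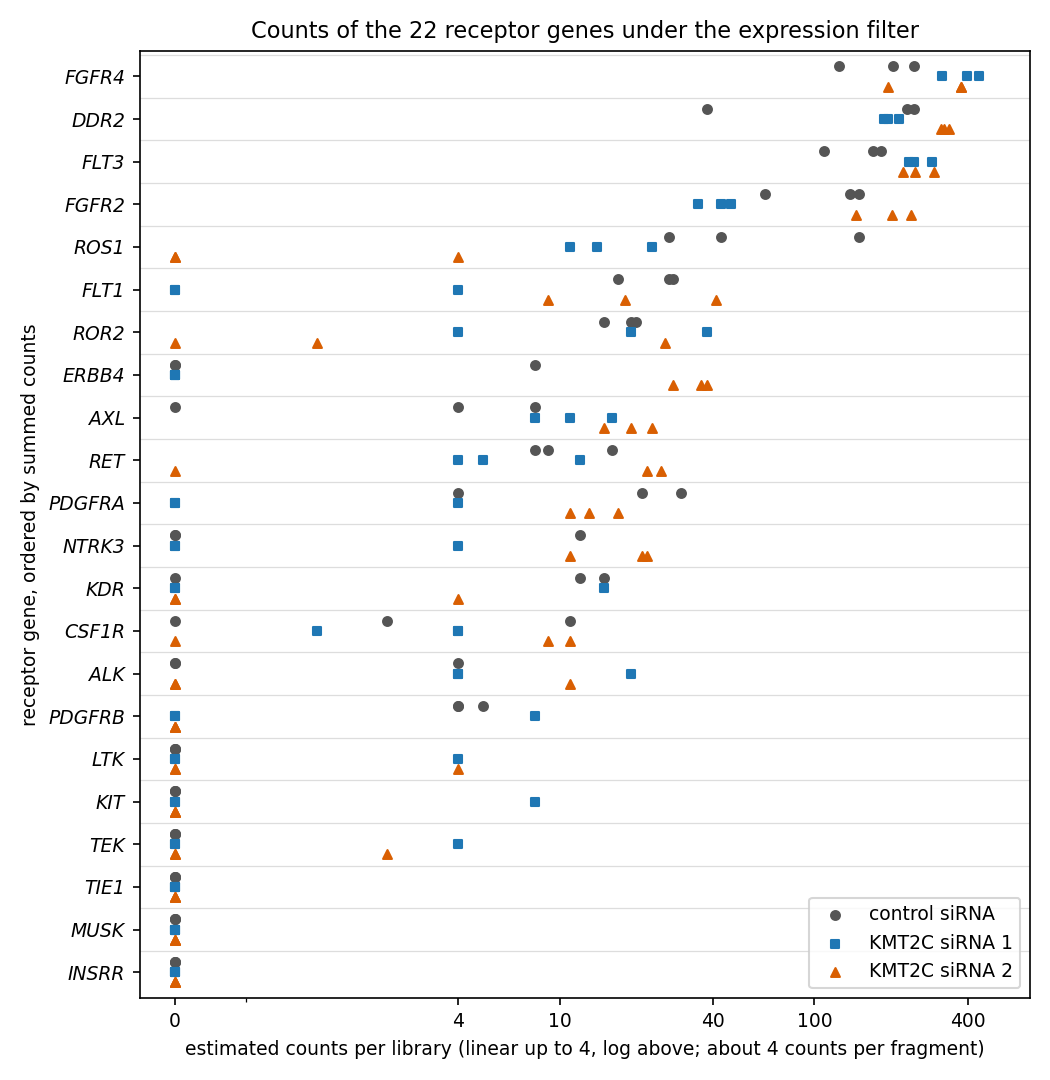
Expected counts in each library (points, 3 libraries a group) of the 22 receptors under the filter, on an axis that is linear up to 4 counts and logarithmic above. FGFR2 sits at 35 to 47 with siRNA 1 against 64 to 149 in control, ROS1 at 0 to 4 with siRNA 2, and ERBB4 at 28 to 38 with siRNA 2 against at most 8 elsewhere.

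Of these, FGFR2, the FGF receptor of epithelium, had expected counts of 64, 138 and 149 in control, 43, 35 and 47 with siRNA 1, and 146, 239 and 201 with siRNA 2. The siRNA 1 libraries were below all others. With no filter on low values, 33869 genes were tested, and 15.0% were called with siRNA 1, 19.9% with siRNA 2 and 14.6% between the siRNAs. In that fit its log2 fold change was -1.49 (adjusted p = 0.0119) with siRNA 1 and 0.66 (adjusted p = 0.205) with siRNA 2, and the difference between the siRNAs was -2.15 (adjusted p = 0.00167). FGFR4 had 125, 204 and 245 in control, 443, 398 and 316 with siRNA 1, and 194, 376 and 375 with siRNA 2. Its siRNA 1 libraries were above all control libraries, with a log2 fold change of 0.99 (adjusted p = 0.0406), and its siRNA 2 libraries overlapped control (0.63, adjusted p = 0.170). FLT3, a receptor of blood progenitors, had 109, 182 and 170 in control, 290, 245 and 235 with siRNA 1, and 248, 222 and 294 with siRNA 2. Every siRNA library was above every control library, at 0.72 (adjusted p = 0.0453) with siRNA 1 and 0.64 (adjusted p = 0.0581) with siRNA 2 without a filter. With siRNA 2 it was called under filterByExpr (0.62, adjusted p = 0.0363) and under the mean FPKM filter (0.65, adjusted p = 0.0238). DDR2, the collagen receptor of mesenchymal cells, had 231, 38 and 247 in control, 188, 194 and 215 with siRNA 1, and 315, 322 and 336 with siRNA 2. Control replicate 2 stood far below the other control libraries, and neither comparison was called (0.17 and 0.80 on the log2 scale, adjusted p = 0.935 and 0.358).

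ROS1, a receptor known from gene fusions in lung cancer, had 43, 27 and 150 in control, 14, 11 and 23 with siRNA 1, and 4, 0 and 0 with siRNA 2. Its counts varied among the control libraries, and siRNA 2 was nearly empty. Summed over libraries and scaled to depth, ROS1 was 55.6-fold lower than control with siRNA 2 (95% interval 9.56 to 2234) and 4.62-fold lower with siRNA 1 (2.45 to 9.48). Control replicate 3 held 150 of the 220 control counts, and without it the folds were 27.6 and 2.30. Without siRNA 2 replicate 2 or 3 the siRNA 2 fold was 36.7 or 37.0, and without siRNA 2 replicate 1 that group has no counts. Its exons share 341 bases with AL132671.2 on the same strand. Without a filter the adjusted p of ROS1 was 0.00574 with siRNA 2 and 0.172 with siRNA 1. FLT1, the receptor of VEGFB, had 17, 28 and 27 in control, 4, 0 and 0 with siRNA 1, and 41, 18 and 9 with siRNA 2. It was 18.2-fold lower with siRNA 1 than in control (95% interval 2.87 to 756, adjusted p = 0.0460 without a filter), a ratio that rests on 4 counts in siRNA 1 replicate 1 and was 12.1-fold without siRNA 1 replicate 2. Control and siRNA 2 overlapped. ERBB4, the neuregulin receptor, had 0, 8 and 0 in control, 0, 0 and 0 with siRNA 1, and 28, 36 and 38 with siRNA 2. Nearly all its counts were in the siRNA 2 libraries, 12.6-fold above control (95% interval 3.22 to 112, adjusted p = 0.148 without a filter) and at least 8.65-fold above siRNA 1 taking 3 fragments over the group as the floor. All 8 control counts were in control replicate 2, and without control replicate 3 the ratio was 8.08. PDGFRA had 21, 4 and 30 in control, 0, 0 and 4 with siRNA 1, and 11, 17 and 13 with siRNA 2. It was 13.9-fold lower with siRNA 1 than in control (95% interval 2.15 to 597), with an adjusted p of 0.109 without a filter, and the ratio was 9.09 without siRNA 1 replicate 1 and 9.24 without siRNA 1 replicate 2. The 4 counts with siRNA 1 were all in replicate 3. Its exons share 1533 bases with AC058822.1 on the same strand. AXL had 8, 0 and 4 in control, 11, 8 and 16 with siRNA 1, and 15, 23 and 19 with siRNA 2. It was 4.70-fold higher with siRNA 2 than in control (95% interval 1.29 to 25.1), with an adjusted p of 0.239, and the ratio was 9.91 without control replicate 1 and 3.09 without control replicate 2. Its exons share 67 bases with AC011510.1 on the opposite strand. The ratios without 1 library were computed after the data were seen. NTRK3 had 0, 12 and 0 in control, 0, 4 and 0 with siRNA 1, and 21, 22 and 11 with siRNA 2. It was 4.45-fold higher with siRNA 2 than in control (95% interval 1.29 to 25.1, adjusted p = 0.451 without a filter). With siRNA 1 it was 13.5-fold lower than with siRNA 2 (2.13 to 591, adjusted p = 0.287). The intervals of ERBB4, PDGFRA, AXL and NTRK3 leave out 1. In the test without a filter only ERBB4 of these was called, in the comparison between the siRNAs (adjusted p = 0.0327).

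Downstream of the receptors, 24 of 34 adaptors and proximal effectors were tested. Of these 2 rose and 7 fell with siRNA 1, where 21.2% of all tested genes were called higher and 20.5% lower. With siRNA 2, 3 rose and 7 fell, where 24.4% were called higher and 24.9% lower. The list had median log2 fold changes of -0.16 and -0.10 beside 0.01 and 0.02 over all tested genes. GAB1, a docking protein of MET and EGFR, stood at 1.21 ± 0.0621 in control, 0.545 ± 0.0560 with siRNA 1 and 0.209 ± 0.0238 with siRNA 2 (SD, n = 3). GAB1 fell by 1.17 ± 0.13 (log2, SE, adjusted p = 2.01e-04) with siRNA 1 and fell by 2.57 ± 0.14 (SE, adjusted p = 1.88e-06) with siRNA 2. It passed the filter only through the control libraries, its highest FPKM with an siRNA being 0.594, so its fall is tied to the filter. IRS2, a docking protein of INSR and IGF1R, stood at 13.5 ± 1.08 in control, 3.81 ± 0.443 with siRNA 1 and 13.2 ± 0.877 with siRNA 2 (SD, n = 3). It fell by 1.85 ± 0.10 (SE, adjusted p = 5.46e-06) with siRNA 1, and its value with siRNA 2 was -0.09 ± 0.09 (SE, adjusted p = 0.453). CRKL, an SH2 and SH3 adaptor, stood at 31.7 ± 1.38 in control, 29.5 ± 1.06 with siRNA 1 and 16.9 ± 0.655 with siRNA 2 (SD, n = 3). Its value with siRNA 1 was -0.12 ± 0.06 (SE, adjusted p = 0.125), and it fell by 0.96 ± 0.06 (SE, adjusted p = 4.67e-06) with siRNA 2. IRS2 and CRKL were thus each called with 1 of the siRNAs, IRS2 with siRNA 1 and CRKL with siRNA 2. IRS2 exons overlap AL162497.1 by 115 bases on the opposite strand.

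Among 23 attenuators, which shut receptors off, 21 were tested. With siRNA 1, 2 rose and 9 fell, where 21.2% of all tested genes were called higher and 20.5% lower. With siRNA 2, 5 rose and 8 fell, where 24.4% were called higher and 24.9% lower. The medians were -0.16 and 0.00. SPRED2, an inhibitor of RAS-ERK signalling, stood at 8.45 ± 0.826 in control, 4.82 ± 0.946 with siRNA 1 and 1.27 ± 0.252 with siRNA 2 (SD, n = 3), and fell by 0.84 ± 0.18 (log2, SE, adjusted p = 0.00682) with siRNA 1 and fell by 2.79 ± 0.20 (SE, adjusted p = 8.92e-06) with siRNA 2. ERRFI1, which binds and inhibits ERBB kinases, stood at 20.7 ± 1.37 in control, 13.3 ± 0.756 with siRNA 1 and 11.1 ± 0.667 with siRNA 2 (SD, n = 3), and fell by 0.66 ± 0.08 (SE, adjusted p = 2.51e-04) with siRNA 1 and fell by 0.96 ± 0.08 (SE, adjusted p = 1.81e-05) with siRNA 2. PTPN1, a phosphatase of the insulin receptor, stood at 16.4 ± 0.636 in control, 14.9 ± 0.747 with siRNA 1 and 11.3 ± 0.457 with siRNA 2 (SD, n = 3). Its value with siRNA 1 was -0.16 ± 0.06 (SE, adjusted p = 0.0746), and it fell by 0.59 ± 0.06 (SE, adjusted p = 8.86e-05) with siRNA 2. ERRFI1 and SPRED2 were called with both siRNAs, and PTPN1 only with siRNA 2. The exons of ERRFI1 overlap AL034417.4 by 155 bases and those of PTPN1 overlap AL133230.1 by 138, on the opposite strand.

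All 11 genes of shedding and endocytic sorting were tested. Of these 1 rose and 6 fell with siRNA 1, where 21.2% of all tested genes were called higher and 20.5% lower. With siRNA 2, 1 rose and 2 fell, where 24.4% of all tested genes were called higher and 24.9% lower. The medians were -0.32 and -0.15. ADAM17, the main sheddase of EGFR ligands such as HBEGF, stood at 2.54 ± 0.0931 in control, 1.26 ± 0.0607 with siRNA 1 and 2.58 ± 0.271 with siRNA 2 (SD, n = 3). It fell by 1.04 ± 0.10 (log2, SE, adjusted p = 8.39e-05) with siRNA 1, and its value with siRNA 2 was -0.03 ± 0.09 (SE, adjusted p = 0.794). ADAM17 exons overlap those of IAH1 by 1323 bases on the opposite strand. ADAM9, another membrane protease, stood at 39.8 ± 1.16 in control, 28.2 ± 2.29 with siRNA 1 and 38.4 ± 1.07 with siRNA 2 (SD, n = 3). It fell by 0.52 ± 0.07 (SE, adjusted p = 3.97e-04) with siRNA 1, and its value with siRNA 2 was -0.11 ± 0.07 (SE, adjusted p = 0.214). EPN1, epsin 1, an endocytic adaptor, stood at 5.47 ± 0.0865 in control, 7.91 ± 0.457 with siRNA 1 and 8.28 ± 0.119 with siRNA 2 (SD, n = 3), and rose by 0.51 ± 0.06 (SE, adjusted p = 2.40e-04) with siRNA 1 and 0.54 ± 0.06 (SE, adjusted p = 9.10e-05) with siRNA 2. EPN1 exons overlap NLRP9 by 613 bases on the opposite strand and AC008749.1 by 306 on the same strand.

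**Figure D4:**
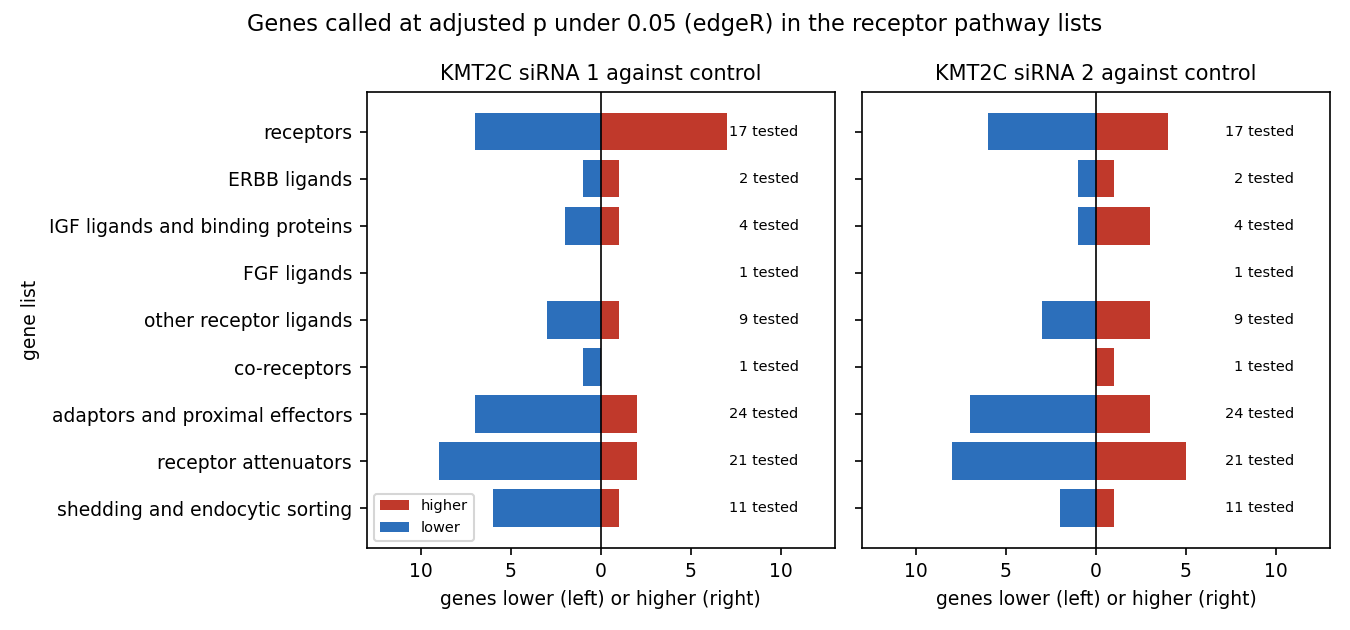
Number of genes called lower (left bars) or higher (right bars) than control at an adjusted p under 0.05 among the receptors and in each list, for siRNA 1 and siRNA 2, with the number tested at the right. Of the 11 sorting genes 6 were called lower and 1 higher with siRNA 1, where 20.5% of all tested genes were called lower and 21.2% higher. With siRNA 2, 2 were called lower and 1 higher, where 24.9% and 24.4% were. The 17 tested receptors were called in both directions with each siRNA.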

How the data were processed

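RNA-seq was done on 9 libraries of VCaP cells. The deposited table holds counts, whole numbers that the authors did not normalize and that are used here like the expected counts of an estimator, because about 4 of them stand for 1 fragment. They were rounded before testing, which changed no value. FPKM was calculated by the authors, per the file headers, with 0.0001 listed where a gene has no counts. Bowtie 0.12.2 and the builds mm8 and hg38 are named with no role, per the submitters' processing notes, and for the counter, its use of strand and the annotation: not given in the sources used here. GENCODE 29 (GRCh38) holds 58394 of the gene identifiers, 72.7% with identical start and end coordinates, as for 11 of the 39 receptors.

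Counts were tested with edgeR 4.0.16 (R 4.3.3), TMM scaling and a quasi-likelihood F test on all 9 libraries with 1 mean per group and Benjamini-Hochberg adjustment, over the genes that reached an FPKM of 1 in 3 or more libraries. The standard error is the log2 fold change divided by the root of F. The scripts were tested on simulated data. Alternatives were RLE and upper quartile scaling, DESeq2 1.42.0, limma 3.58.1 on log2(FPKM + 1) and log2(FPKM + 0.1), other filters, counts divided by 4, 2 groups only, a replicate block and leaving out each library. Same-numbered libraries did not deviate together (r from -0.07 to 0.05 over 9 pairs), so the numbers were not taken as pairs.

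Every receptor was accounted for, with values by library for each receptor called in any comparison. From each list of ligands, co-receptors, adaptors, attenuators and sorting genes, up to 3 genes called against control with the smallest adjusted p were named, and KMT2C. The members and lists were chosen with earlier results of these data known.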

Additional observations from a re-analysis of the deposited data

Results flagged for a closer look

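For 11 receptors the effect of siRNA 1 differed from that of siRNA 2, as tested directly between the siRNA groups in the same edgeR fit, where 39.5% of all tested genes differed. Given as the log2 effect of siRNA 1 minus that of siRNA 2, EGFR was at 0.82, ERBB3 at 1.01, FGFR3 at 0.75, INSR at 0.49, MERTK at 1.90 and TYRO3 at 1.09. FGFR1 was at -0.77, MST1R at -0.42, NTRK2 at -0.81, PTK7 at -0.98 and RYK at -0.38. For ERBB3 and MERTK both siRNAs lowered the RNA and siRNA 2 lowered it more. For NTRK2 both raised it and siRNA 2 raised it more. INSR was called in opposite directions against control, both near the threshold. KMT2C itself was at a similar level with both siRNAs, 1.87 ± 0.375 and 1.69 ± 0.0488 FPKM (SD, n = 3).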

How the results depend on the processing

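Over 51 receptor results and 20 alternatives, 969 of 1020 values kept their call or stayed uncalled, 38 lost the call and 13 gained it. A call in the opposite direction was seen in 0. Values that were not called could change sign. IGF1R with siRNA 1, for example, went from -0.11 to 0.11 without control replicate 3. Leaving out each library in turn, the number of receptors higher with siRNA 1 ranged from 4 (without siRNA 1 replicate 2) to 7, and of those lower from 5 to 8. Without siRNA 1 replicate 2, 2397 of all 12830 tested genes were higher with siRNA 1, against 2724 with every library. With siRNA 2 the ranges were 4 to 4 higher and 5 to 6 lower, and between the siRNAs 6 to 7 higher and 4 to 6 lower. The filterByExpr filter, which tested 30 receptors, gave 8 lower with siRNA 1 than with siRNA 2, against 5, because more receptors entered the test. Over all genes it called 2507 of 21150 lower in that comparison, against 2422 of 12830 in the main fit. With the replicate block 5 receptors were higher and 7 lower with siRNA 1, 4 and 6 with siRNA 2, and 6 and 5 between the siRNAs. Over all 12830 genes the block called 5007 in either direction with siRNA 1, 6070 with siRNA 2 and 4766 between the siRNAs. The main fit called 5349, 6328 and 5068. The numbers do not pair the libraries (median r of -0.02 over 9 same-numbered pairs, and -0.09 to 0.10 over 18 others). Upper quartile scaling moved the median over all genes with siRNA 2 from 0.02 to 0.12. About 4 counts a fragment and few fragments limit what can be said of the 22 receptors under the filter.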
